A study of Mus musculus with 8 samples.

Results

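Non-responder tumours given antisense oligonucleotides (ASOs) against Smyd3 were compared with control ASO tumours, with every tumour also given anti-PD-1. The comparison takes the 2 tumours labelled non-responder and the 3 control tumours, 5 of the 8 in the series. Of 55450 genes in the table, 16322 had 10 or more reads in 2 or more of these 5 tumours and were tested. The second-highest count of the 5 was 10 in 208 genes, just inside that limit, and 9 in 221 genes, just outside it. The tumours grew from MOC1, a mouse oral squamous cell carcinoma line, in the flank of C57BL/6 mice. Treatment ran for 32 days, and bulk polyA RNA was sequenced from the snap-frozen tumour. The labels give neither the ages of the mice, the criterion for response, nor the route of the ASO. Response is an outcome and not an assigned treatment, so the 2 groups compared differ in the ASO and in having been picked by outcome. The labels give no replicate number to the non-responders, and they are called non-responder 1 and 2 here in the order listed.

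SMYD3 is a lysine methyltransferase of the SET and MYND domain family, and an ASO of this kind binds a transcript and lowers its level. Anti-PD-1 blocks an inhibitory receptor on T cells, which can then release interferon gamma. Interferon gamma switches on GTPases of cell defence, chemokines that draw T cells and the machinery that presents peptides on MHC class I. A squamous carcinoma is made of keratinocytes, which can mature from a basal state to a cornified one, and its bulk RNA also holds fibroblasts, vessels, immune cells and whatever host tissue was resected with it.

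The 5 libraries summed to between 22103853.1 and 24918684.9 expected counts, so that 1 CPM (read counts scaled to a common library total) was worth between 21.75 and 24.13 reads. The basal keratinocyte genes on the list used here, such as Krt5 and Krt14, summed to between 32220 and 48720 CPM and were read in all 5 tumours, which fits the label of a squamous carcinoma. Control 2 stood apart from the other controls: 2381 genes differed at least 2-fold between it and control 1 and 1977 between it and control 3, against 1175 between controls 1 and 3. Between the non-responders 1792 genes differed at least 2-fold. That was about as many as between non-responder 1 and control 1 (1794) or non-responder 2 and control 3 (1736). The other pairs of a control and a non-responder differed in up to 2884 genes. Because control 2 stood apart, medians without it are given beside many of the lists. No label says that the tumours came from separate animals, so p-values measure the spread between these samples. Xist was read in all 5 tumours and the 4 Y-linked genes examined were at 0 in each.

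Smyd3 (ENSMUSG00000055067.15, chr1:178951960-179518041, minus strand, mm10), the ASO target, was at 10.7, 11.9 and 10.6 CPM in controls 1, 2 and 3. It was at 9.24 CPM in non-responder 1 and 4.88 CPM in non-responder 2. Both non-responders lay below all controls, at 83.6% and 44.1% of the control mean of 11.1 ± 0.725 CPM (SD, n = 3). The fitted log2 fold change, non-responder minus control, was −0.65 (SE 0.39) with an adjusted p of 0.666. An exact two-sided permutation test over the 10 splits of the 5 tumours gave p = 0.2, the one-sided p of 0.1 times 2, which is the smallest p this form of the test allows here. The responders were at 8.72 and 4.41 CPM and the Smyd3 ASO tumour with no response mark at 4.59 CPM. Non-responder 1 thus held the highest Smyd3 level of the 5 Smyd3 ASO tumours. Another family member, the muscle methyltransferase gene Smyd1, was at 0.456, 0.312 and 0.63 CPM in the controls and at 3.04 and 3.62 CPM in the non-responders.

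No gene passed an adjusted p of 0.05 in edgeR's quasi-likelihood test (0% of 16322), and the lowest adjusted p was 0.0756. At an unadjusted p under 0.05 there were 1500 genes (9.19%), of which 806 (4.94%) were higher in the non-responders and 694 (4.25%) lower. DESeq2 called 329 genes, 219 higher (1.34%) and 110 lower (0.674%), whereas limma-voom called 0. Without the filter on low counts edgeR called 4 genes, Dlx3, Des and Abra as higher and Srcap as lower. Abra had 2 reads in all controls together and 79 in the non-responders. It passed the main filter only through the non-responders. Since the main test called nothing, the genes below are described by their level in each tumour and by the counts of genes whose groups do not overlap. Over all genes tested both non-responders lay above all 3 controls in 1952 (12%) and below them in 2080 (12.7%), the median log2 fold change was 0.0066, and 50.9% of genes lay above 0.

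The gene with the smallest p was Dlx3 (ENSMUSG00000001510.8, chr11:95120119-95125296, plus strand), a homeobox factor of epidermal and hair follicle differentiation. Its level was 11.7, 8.68 and 9.11 CPM in the controls and 46.6 and 64.9 CPM in the non-responders, so the lower non-responder was well clear of the highest control. The log2 fold change was 2.50 (SE 0.21, unadjusted p = 4.63e-06, adjusted p = 0.0756 in edgeR, 2.54e-20 in DESeq2). In the remaining Smyd3 ASO tumours Dlx3 was at 14.2 and 14.0 CPM in the responders and 36.3 CPM in the unmarked tumour. The 6 Dlx genes in the table, a family picked after its values were seen, summed to 34.7, 29.1 and 19.2 CPM in the controls and to 76.8 and 108 CPM in the non-responders. Dlx3 is itself in these sums, as 46.6 and 64.9 CPM of the sums in the non-responders. Dlx5 and Dlx6 had too few reads to be tested.

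Tgm3 (ENSMUSG00000027401.9, chr2:130012349-130050399, plus strand) encodes a transglutaminase that cross-links proteins of the cornified envelope and hair shaft. It was at 1.24, 0.223 and 0.798 CPM in the controls, 196 CPM in non-responder 1 and 45.5 CPM in non-responder 2. The log2 fold change was 7.30 (SE 0.81, adjusted p = 0.197). The other 3 Smyd3 ASO tumours held between 1.17 and 2.57 CPM. Neo1, which encodes the netrin and RGM receptor neogenin, was at 67.6, 65.8 and 70.9 CPM in the controls and at 140 and 121 CPM in the non-responders (log2 fold change 0.94, adjusted p = 0.224). Slc39a10, a zinc importer gene, was at 53.8, 46.1 and 52.8 CPM against 106 and 117 CPM (1.13, adjusted p = 0.224). Neither gene's groups overlapped, which the choice of genes required.

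On the lower side Srcap (ENSMUSG00000053877.12, chr7:127511983-127561219, plus strand), the ATPase of a complex that places histone variant H2A.Z in chromatin, was at 137, 164 and 203 CPM in the controls. It was at 26.9 and 37.0 CPM in the non-responders (log2 fold change −2.39, SE 0.28, adjusted p = 0.197). Srcap was also at 6.52 and 10.1 CPM in the responders and 34.1 CPM in the unmarked tumour, so all 5 Smyd3 ASO tumours lay below all 3 controls. Cdh13, the gene of the lipid-anchored T-cadherin, was at 59.2, 60.2 and 59.3 CPM in the controls and 29.2 and 28.0 CPM in the non-responders (−1.06, adjusted p = 0.197). Arrb1, the gene of beta-arrestin 1, which turns off and redirects signalling from G protein-coupled receptors, was at 158, 233 and 160 CPM against 60.1 and 73.3 CPM (−1.46, adjusted p = 0.268). Spon1, an extracellular matrix protein gene, was at 135, 186 and 167 CPM against 80.0 and 69.5 CPM (−1.12, adjusted p = 0.260). All 10 genes of smallest p, 5 in each direction, had a DESeq2 adjusted p under 0.05. They were picked among genes with both non-responders outside the controls on 1 side and a mean of at least 1 CPM.

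**Figure D1:**
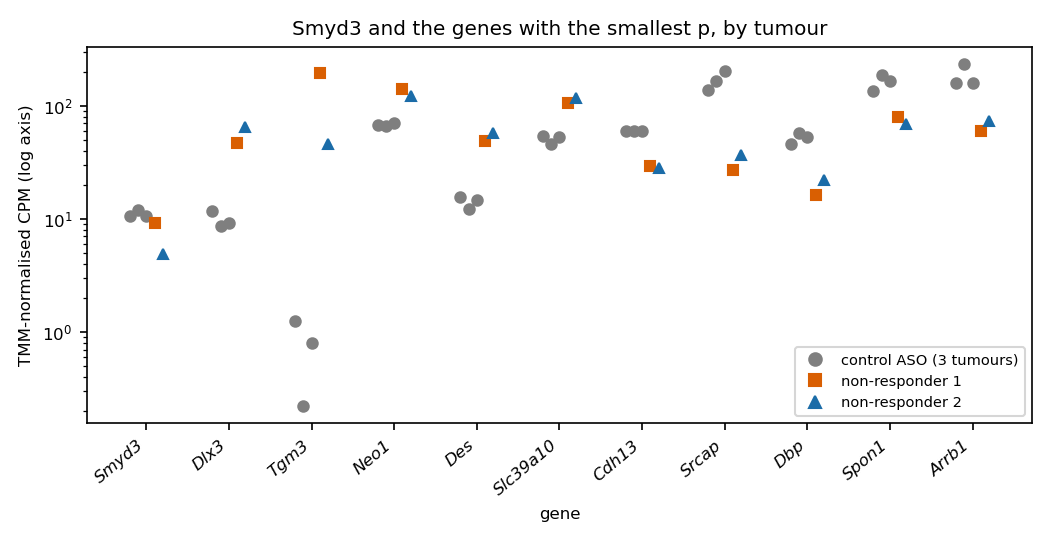
TMM-normalised CPM on a log axis for Smyd3 and the 10 genes of smallest p, 1 point per tumour (grey circles, 3 controls; orange square, non-responder 1; blue triangle, non-responder 2). Both non-responders lie below the 3 controls for Smyd3, and the other 10 genes were picked for lying outside the controls on 1 side. For Tgm3 the non-responders, at 196 and 45.5 CPM, are the farthest from the controls.

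Genes of keratinocyte cornification build the tough outer envelope of a mature squamous cell. They lay mostly above all controls in non-responder 1 (24 of 31, beside 30.4% of all genes). Non-responder 2 was above all controls in 12 and below them in 4 (all genes, 25.1% and 24.4%). Of 31 tested genes on a list of 33, 25 had a log2 fold change above 0 and 12 had both non-responders above all controls, with none below (all genes, 12% and 12.7%). The list's median log2 fold change was 0.90. On the log2 CPM scale its median difference from the control mean was 1.60 in non-responder 1 and 0.25 in non-responder 2. The median was 0.69 without control 2, 1.62 without control 1 and 0.12 without non-responder 1. Krt13, a keratin of differentiating oral epithelium, was at 42.9, 19.6 and 25.4 CPM in the controls and at 89.9 and 78.7 CPM in the non-responders (log2 fold change 1.52, adjusted p = 0.290). Dsg1a, a desmosomal cadherin gene of upper epidermal layers, was at 2.24, 0.312 and 1.93 CPM against 13.5 and 15.0 CPM. Lor, the gene of the envelope protein loricrin, was at 3.98, 0.623 and 1.64 CPM against 25.9 and 7.28 CPM.

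Non-responder 1 carried the late cornified envelope genes, small proteins of the outermost epidermis. Summed over 21 Lce genes, a family picked after its values were seen, the level was 89.5, 11.9 and 28.8 CPM in the controls, 640 CPM in non-responder 1 and 64.1 CPM in non-responder 2. Of these Lce genes 19 were tested, 1 of them only because of reads in the non-responders. Non-responder 1 was above all controls in 19 and non-responder 2 in 3 (all genes, 30.4% and 25.1%). The small proline-rich Sprr genes, also envelope precursors, summed to 839, 357 and 601 CPM in the controls, 1547 CPM in non-responder 1 and 553 CPM in non-responder 2. For basal keratinocyte genes 7 of 21 tested lay above 0 and 14 below, and the median was −0.10. The groups did not overlap in 1, Itgb1, which was lower, as were 12.7% of all genes. Itgb1, an integrin gene, was at 671, 1028 and 604 CPM in the controls and 569 and 547 CPM in the non-responders.

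Hair follicle genes stood out in non-responder 2. Of 24 genes on the list 17 were tested, 2 of them only because of reads in the non-responders. Both non-responders were above all controls in 5 of the 17, beside 12% of all genes. These 5 include Msx2, which passed the filter only through the non-responders, so the filter nearly fixed its place above the controls. The summed level was between 113 and 150 CPM in the controls, 222 CPM in non-responder 1 and 896 CPM in non-responder 2. Krt28, an inner root sheath keratin gene, was at 0.0414, 0 and 0.504 CPM in the controls, 0.368 CPM in non-responder 1 and 39.8 CPM in non-responder 2. The hair shaft keratin genes Krt81, Krt36, Krt34 and Krt33a were each at or under 1.13 CPM in the controls and non-responder 1 and between 20.0 and 35.8 CPM in non-responder 2. The keratin-associated proteins of hair, 58 genes of which 1 was tested, summed to at most 2.60 CPM in the controls, 0.736 CPM in non-responder 1 and 76.9 CPM in non-responder 2.

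The genes above all controls in both non-responders were the transcription factor genes Msx2, Hoxc13, Foxn1 and Lef1, the last also expressed by T cells, and Tchh. Msx2, a homeobox gene of the hair matrix, had 6 reads in all controls together (0.0414, 0 and 0.210 CPM) and was at 2.25 and 14.9 CPM in the non-responders. Tchh, which encodes trichohyalin of the inner root sheath and filiform papillae, was at 67.3, 36.5 and 58.8 CPM against 114 and 316 CPM (log2 fold change 1.99, adjusted p = 0.343). Whether these reads came from carcinoma cells or from skin follicles resected with the flank tumour was not tested.

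**Figure D2:**
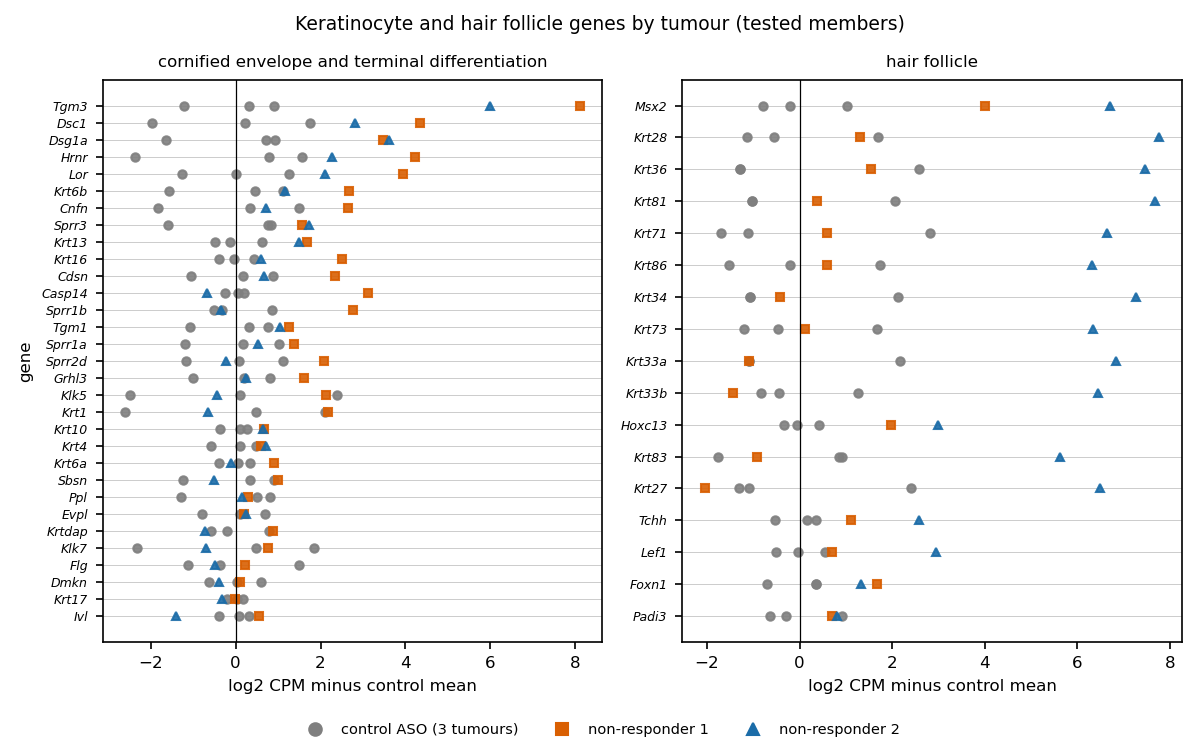
Each row is a gene and each point a tumour, placed by log2 CPM minus the mean of the 3 controls (left, cornified envelope and terminal differentiation; right, hair follicle). Orange squares (non-responder 1) lie to the right of the controls in 24 of 31 cornification genes, beside 30.4% of all genes. Blue triangles (non-responder 2) do so in 16 of 17 hair follicle genes, beside 25.1% of all genes.

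Genes induced by interferon gamma lay mostly above the controls in both tumours. Their summed level was between 2420 and 3200 CPM in the controls and 4474 and 7616 CPM in the non-responders. It was higher still in the responders (8070 and 10510 CPM) and the unmarked tumour (9283 CPM). Of 25 on the list all were tested, 24 had a log2 fold change above 0 and 18 had both non-responders above all controls, beside 12% of all genes. DESeq2 called 13 of the 25 as higher, beside 1.34% of all genes. The median was 1.09, 1.35 without control 2 and 0.64 without non-responder 2. Non-responder 2 was farther from the controls than non-responder 1, with median differences of 1.58 and 0.68 on the log2 scale. Fewer cells of a type and less RNA per cell cannot be told apart in bulk tissue, here or in the groups that follow.

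The 4 list members of smallest p were GTPases that act on intracellular pathogens. Tgtp1 was at 180, 188 and 200 CPM in the controls and at 428 and 777 CPM in the non-responders (log2 fold change 1.67, SE 0.24, adjusted p = 0.260). Igtp was at 125, 141 and 142 CPM against 287 and 482 CPM, and Irgm2 at 109, 113 and 131 CPM against 228 and 379 CPM. Gbp6, a guanylate-binding protein gene, was at 94.0, 118 and 94.9 CPM against 195 and 346 CPM. In each the lower non-responder was above the highest control. Tgtp1 and Tgtp2 are near copies, and the Igtp and Irgm2 gene models overlap on the same strand, so the split of reads between partners is uncertain.

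Tgtp1, Igtp, Irgm2 and the chemokine gene Cxcl10 carry a short interferon-response motif near their start, and the sequences are shown because both non-responders lay above all controls in each. Gbp6 had no entry in the promoter table and was not searched. The only motif searched was 2 copies of GAAA with any 2 bases between them, on either strand, in RefSeq promoters of GRCm38.p6 that run from 250 bases before to 50 bases after each gene's start. Each line gives the strand of the gene, 5′ to 3′, with the match in capitals, which begins 77 (Tgtp1), 34 (Igtp), 64 (Irgm2) and 213 (Cxcl10) bases before the start.
Tgtp1, chr11:48992289-48992348, minus strand: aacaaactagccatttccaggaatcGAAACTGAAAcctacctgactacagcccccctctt
Igtp, chr11:58199497-58199555, plus strand: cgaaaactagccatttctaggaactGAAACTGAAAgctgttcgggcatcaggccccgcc
Irgm2, chr11:58214888-58214947, plus strand: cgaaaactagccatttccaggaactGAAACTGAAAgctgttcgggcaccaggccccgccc
Cxcl10, chr5:92349068-92349127, minus strand: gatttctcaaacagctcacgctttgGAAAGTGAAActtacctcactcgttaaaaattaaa
A match was present for 12 of the 15 interferon gamma genes with a promoter in the RefSeq table (80%), 15 of 25 type I interferon genes (60%), 5 of 18 MHC class I genes (27.8%) and 1 of 8 MHC class II genes (12.5%). Among all genes tested it was 461 of 11812 with a promoter (3.9%), and among all windows of the same length 1131 of 32851 (3.44%). A match describes the letters only and shows no binding.

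Type I interferon response genes, the antiviral group, differed between the non-responders. Of 33 tested, 31 lay above 0 and 8 had non-overlapping groups, all higher, beside 12% of all genes. Non-responder 2 was above all controls in 31 and non-responder 1 in 8 (all genes, 25.1% and 30.4%), and the median differences were 1.21 and 0.14. Parp14, a mono-ADP-ribosyltransferase gene, was at 104, 86.7 and 130 CPM in the controls and 144 and 244 CPM in the non-responders. Ifit3, an antiviral gene, was at 45.4, 30.7 and 52.7 CPM in the controls, 51.5 CPM in non-responder 1 and 140 CPM in non-responder 2.

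The MHC class I presentation genes, which cut, load and display peptides, showed the same split by tumour. Their summed level was between 9467 and 10950 CPM in the controls and 10310 and 14590 CPM in the non-responders. It was 16340 and 16870 CPM in the responders and 17010 CPM in the unmarked tumour. All 20 had a log2 fold change above 0, with a median of 0.40 (0.0456 without non-responder 2). In 8 the groups did not overlap, all higher, beside 12% of all genes. Non-responder 2 was above all controls in 19 and non-responder 1 in 8 (all genes, 25.1% and 30.4%). Psmb10, an immunoproteasome subunit gene, was at 44.1, 47.1 and 41.6 CPM in the controls and at 60.1 and 95.7 CPM in the non-responders (log2 fold change 0.82, adjusted p = 0.376). Tap1, the peptide transporter gene, was at 283, 258 and 296 CPM against 345 and 545 CPM. For MHC class II genes, 11 of 11 lay above 0 (median 0.45, 0.0043 without non-responder 2 and 0.73 without control 2). None had non-overlapping groups, where 12% of all genes were higher. Non-responder 1 was above all controls in 0 of them and below all in 2 (all genes, 30.4% and 29.8%). Non-responder 2 was above all controls in 10 (all genes, 25.1%).

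**Figure D3:**
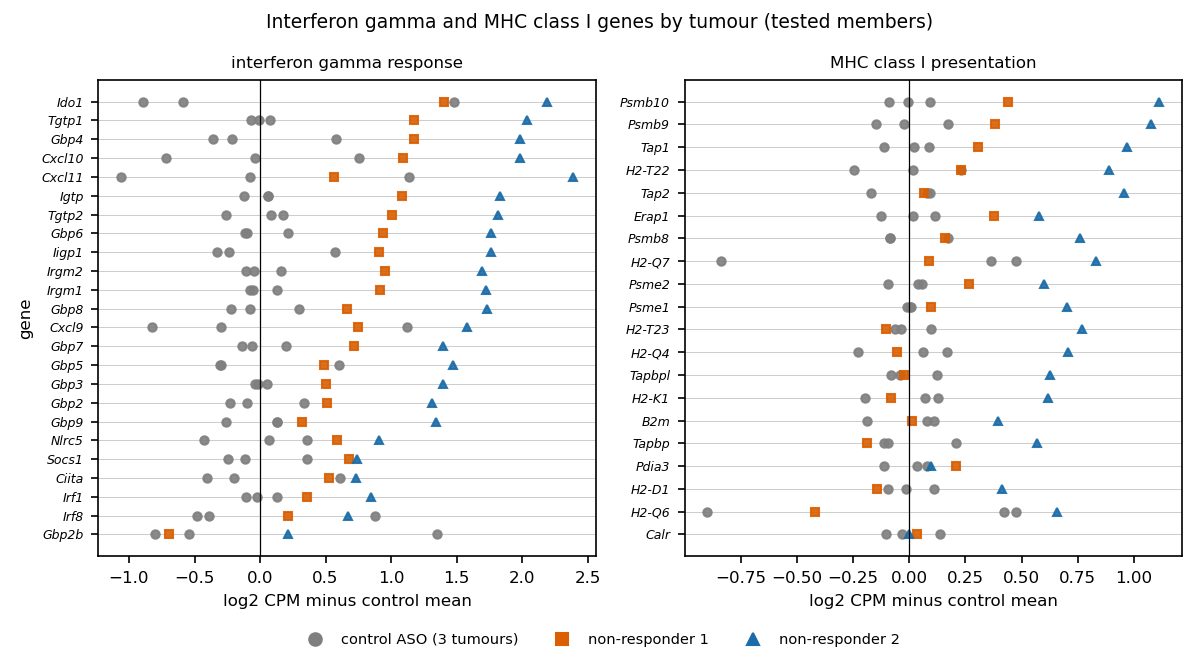
Each row is a gene and each point a tumour, placed by log2 CPM minus the mean of the 3 controls (left, interferon gamma response, 24 of its 25 genes drawn; right, MHC class I presentation, all 20 genes). Over the whole lists non-responder 2 (blue triangles) was above all controls in 23 and 19 genes, beside 25.1% of all genes. Non-responder 1 (orange squares) was above them in 18 and 8, beside 30.4% of all genes.

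Chemokines that recruit lymphocytes and monocytes, and their receptors, had 13 of 17 tested members above 0. In 7 the groups did not overlap, all higher, beside 12% of all genes. The list's median was 0.98 (1.46 without control 2, 0.41 without non-responder 2). Cxcl10, a ligand of CXCR3 on T cells, was at 31.4, 54.4 and 19.6 CPM in the controls and at 68.8 and 127 CPM in the non-responders (log2 fold change 1.48, adjusted p = 0.382). Ccl2, a monocyte attractant, was at 7.0, 20.8 and 15.2 CPM against 52.4 and 26.1 CPM. Ccl5, a chemokine of activated T cells, was at 4.97, 11.2 and 2.90 CPM against 15.0 and 25.9 CPM.

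Cytotoxic T and NK cell genes had 17 of 18 tested members above 0 and 8 with non-overlapping groups, all higher (all genes, 12%). The median was 0.99, and 0.43 without non-responder 2. It was 1.48 without control 2, whose summed level (56.1 CPM) was above those of controls 1 and 3 (28.2 and 27.8 CPM) and below both non-responders (60.2 and 115 CPM). Gzmb, a granzyme gene, was at 2.49, 4.99 and 3.07 CPM in the controls and 6.67 and 13.7 CPM in the non-responders. Eomes, a transcription factor gene of effector lymphocytes, was at 1.28, 0.891 and 0.714 CPM against 5.15 and 2.09 CPM. Cd8a, the co-receptor gene of cytotoxic T cells, was at 3.98, 6.68 and 5.04 CPM against 7.73 and 16.5 CPM. Their adjusted p values were between 0.357 and 0.496.

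General T cell genes had 16 of 18 above 0 (median 0.76). Groups did not overlap in 3, Cd3d and Trbc2 higher and Thy1, which fibroblasts also express, lower. These counts did not exceed the shares over all genes, 12% higher and 12.7% lower. The list's median was 0.13 without non-responder 2 and 1.182 without control 2. The summed level of control 2 (180.9 CPM) was above both non-responders (102.1 and 132.5 CPM), with controls 1 and 3 at 94.2 and 102.3 CPM. Cd3d, a chain of the T cell receptor complex, was at 1.33, 1.56 and 1.47 CPM in the controls and 2.85 and 3.88 CPM in the non-responders. Regulatory T cell genes had 7 of 10 above 0, 1 of the 10 tested only through reads in the non-responders. Groups did not overlap in Izumo1r (higher) and Tnfrsf4 (lower), again not exceeding the shares over all genes. Foxp3, the defining factor of regulatory T cells, was at 0.829, 2.09 and 0.840 CPM against 1.47 and 3.75 CPM, with overlap.

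Among checkpoint and exhaustion genes 13 of 15 lay above 0, with non-overlapping groups in 2 higher and 1 lower, beside 12% and 12.7% of all genes. The median was 0.50, but 0.03 without non-responder 2 and 0.77 without control 2. Cd274, which encodes the PD-1 ligand PD-L1, was at 42.1, 51.0 and 38.1 CPM in the controls and at 61.9 and 101 CPM in the non-responders (log2 fold change 0.90, adjusted p = 0.505). Lag3, an inhibitory receptor gene, was at 6.67, 9.57 and 6.68 CPM against 10.3 and 13.7 CPM. Tnfrsf9, the costimulatory receptor gene 4-1BB, went the other way, at 14.1, 59.5 and 28.8 CPM in the controls and 8.88 and 14.0 CPM in the non-responders.

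Antibody genes varied by gene and by tumour. Ighm, the IgM heavy chain, was at 7.71, 9.31 and 22.2 CPM in the controls, 26.2 CPM in non-responder 1 and 221 CPM in non-responder 2. Jchain, which joins IgM and IgA chains, was at 0.332, 0.579 and 2.06 CPM in the controls, 0.552 CPM in non-responder 1 and 25.6 CPM in non-responder 2. Ighg1, an IgG heavy chain picked after its values were seen, was at 0.497, 0.312 and 0.840 CPM in the controls and at 8.28 and 8.67 CPM in the non-responders. The other IgG genes differed. Ighg3, with 6 reads in all controls together, passed the filter only through the non-responders and was above all controls in both. Ighg2c was above them in non-responder 2 alone (8.76 CPM, against 0.138 CPM in non-responder 1). Ighg2b was inside the control range in both. Of 16 B and plasma cell genes 8 were tested and 5 lay above 0. In 1 the groups did not overlap, higher, beside 12% of all genes.

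The myeloid lists did not share a direction. Neutrophil genes had 13 of 14 tested above 0, with like medians in the tumours (0.78 and 0.76). Their groups did not overlap in 9, all higher, beside 12% of all genes. Il1b, an inflammatory cytokine gene, was at 35.1, 29.8 and 29.7 CPM in the controls and 74.6 and 47.3 CPM in the non-responders. Cxcl1, a neutrophil attractant, was at 40, 33.4 and 27.3 CPM against 125 and 41.3 CPM. Macrophage genes had 4 of 18 above 0 and a median of −0.18, which was 0.10 without control 2. On that list groups did not overlap in 1 of 18, Cd14, higher, which did not exceed the 12% of all genes. Non-responder 1 was below all controls in 9 of the 18 and non-responder 2 in 0 (all genes, 29.8% and 24.4%). Cd14, the lipopolysaccharide co-receptor gene, was at 21.8, 19.6 and 24.7 CPM in the controls and 35.5 and 38.5 CPM in the non-responders (log2 fold change 0.75, adjusted p = 0.277). Cd163, a scavenger receptor gene of resident macrophages, was at 1.66, 18.7 and 17.1 CPM against 1.01 and 4.23 CPM. Dendritic cell genes had 11 of 14 tested above 0 (median 0.31, and 0.91 without control 2). In 5, Cd24a, Flt3, Xcr1, Ccl22 and Ccr7, the groups did not overlap, all higher, beside 12% of all genes. The summed dendritic level of the non-responders (480.4 and 487.3 CPM) was inside the control range (356.4 to 531.4 CPM). Ccr7, which guides dendritic cells to lymph nodes, was at 1.53, 3.70 and 1.34 CPM against 5.20 and 6.01 CPM. Mast cell genes had 9 of 10 above 0, with a median difference of 1.46 in non-responder 2 and −0.25 in non-responder 1.

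All 26 skeletal muscle genes had a log2 fold change above 0, and in 25 both non-responders lay above all controls, beside 12% of all genes. The exception was Tnni1, a slow-fibre troponin gene, where non-responder 1 was below all controls. Their median log2 fold change was 3.66, their summed level was between 58.7 and 151 CPM in the controls and 939 and 1364 CPM in the non-responders, and none was at 0 in all 3 controls. Des, the gene of the muscle intermediate filament desmin, was at 15.6, 12.2 and 14.7 CPM in the controls and at 48.8 and 57.5 CPM in the non-responders (1.90, adjusted p = 0.224). Myh1, a fast myosin heavy chain gene, was at 10.2, 4.19 and 12.3 CPM against 81.5 and 139 CPM (3.63, adjusted p = 0.248). The muscle genes were higher still in the other 3 Smyd3 ASO tumours, at summed levels of 3276 to 15280 CPM. Smyd1, named above, is itself a muscle gene. These muscle transcript levels moved with the group, and their part in the other results was not tested. Of 12 adipocyte genes 7 were tested, 1 of them only through the non-responders. Both non-responders were above all controls in 2, Cfd and Plin4, and below in 1, Lpl (all genes, 12% and 12.7%). The lipid droplet gene Plin4 was at 0.373, 0.312 and 0.420 CPM in the controls and at 0.920 and 4.23 CPM in the non-responders, while the fatty acid binding gene Fabp4 overlapped.

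Fibroblast and matrix genes lay below the controls. All 22 had a log2 fold change under 0, and in 16 both non-responders lay below all controls, beside 12.7% of all genes. DESeq2 called 7 of the 22 as lower, where 0.674% of all genes were. The median was −0.79, with like values in the tumours (−0.81 and −0.73), and −0.48 without control 2, which held the highest summed level (25320 CPM, against 13990 and 15850 CPM in controls 1 and 3 and 10170 and 10280 CPM in the non-responders). Loxl2, a collagen cross-linking oxidase gene, was at 129, 204 and 128 CPM in the controls and at 71.4 and 44.8 CPM in the non-responders (log2 fold change −1.41, SE 0.28, adjusted p = 0.296). Pdgfrb, a growth factor receptor gene of fibroblasts and pericytes, was at 82.4, 137 and 111 CPM against 57.3 and 53.6 CPM (−0.99, adjusted p = 0.331). The collagen VI gene Col6a2 was at 315, 531 and 370 CPM against 209 and 178 CPM.

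Genes of TGF-beta signalling and epithelial-mesenchymal transition had 17 of 19 below 0 (median −0.51, and −0.26 without control 2). In 8 the groups did not overlap, all lower, beside 12.7% of all genes. Tgfbr2, the ligand-binding TGF-beta receptor gene, was at 179, 174 and 183 CPM in the controls and at 126 and 125 CPM in the non-responders (−0.51, adjusted p = 0.357).

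Genes of the vessel wall had log2 fold changes mostly under 0. Smooth muscle and pericyte genes had 12 of 14 below 0 (median −0.57, and −0.33 without non-responder 2). Both non-responders were below all controls in 5 (Kcnj8, Tagln, Abcc9, Notch3 and Rgs5), beside 12.7% of all genes. Des, shared with the muscle list, was above. Kcnj8, a potassium channel gene of pericytes, was at 8.91, 13.7 and 19.1 CPM in the controls and at 3.86 and 4.18 CPM in the non-responders. Endothelial genes had 14 of 14 below 0, 3 of them with non-overlapping groups (Flt1, Vwf and Cldn5), beside 12.7% of all genes. Non-responder 1 was below all controls in 10 and non-responder 2 in 3 (all genes, 29.8% and 24.4%). The endothelial median was −0.53, but −0.19 without control 2. Flt1, a receptor gene for vascular endothelial growth factor, was at 99.8, 125 and 106 CPM against 39.6 and 67.5 CPM (−1.04, adjusted p = 0.343), and Vwf, the von Willebrand factor gene, at 38.5, 67.1 and 83.6 CPM against 22.5 and 30.7 CPM.

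Hypoxia and glycolysis genes, most of them targets of HIF-1, lay below the controls, and more so in non-responder 2. Of 22, 21 had a log2 fold change under 0 and 12 had both non-responders below all controls, beside 12.7% of all genes. The median was −0.60 (−0.44 without control 2), with differences of −0.36 in non-responder 1 and −0.83 in non-responder 2. Car9, a carbonic anhydrase gene used as a hypoxia marker, was at 39.5, 53.6 and 47.3 CPM in the controls and at 23.4 and 13.0 CPM in the non-responders (−1.36, adjusted p = 0.363). Egln1, an oxygen-sensing prolyl hydroxylase gene, was at 224, 325 and 207 CPM against 141 and 115 CPM. Slc2a1, the glucose transporter gene GLUT1, was at 662, 933 and 451 CPM in the controls, 625 CPM in non-responder 1 and 176 CPM in non-responder 2.

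Clock genes had 12 of 16 below 0, at a median of −0.58. Both non-responders were below all controls in 8, beside 12.7% of all genes. Dbp, a transcription factor gene driven directly by the clock, was at 46.1, 56.9 and 53.3 CPM in the controls and at 16.4 and 21.9 CPM in the non-responders (−1.45, SE 0.20, adjusted p = 0.246). Nr1d1, a clock repressor gene, was at 159, 186 and 150 CPM against 94.7 and 101 CPM, and Per3, a period gene, at 68.1, 55.4 and 60.0 CPM against 36.6 and 33.9 CPM. The labels give no time of day for the resections.

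**Figure D4:**
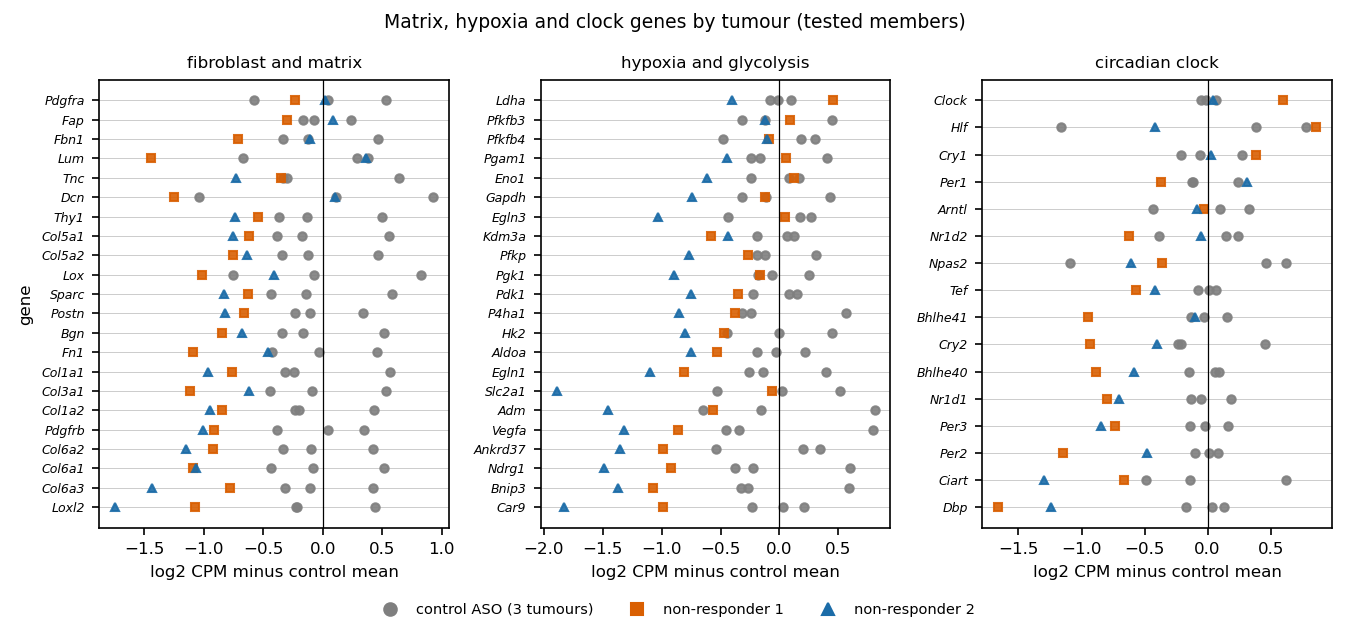
Each row is a gene and each point a tumour, placed by log2 CPM minus the mean of the 3 controls (fibroblast and matrix, 22 genes; hypoxia and glycolysis, 22; circadian clock, 16). Both non-responders lie below all controls in 16, 12 and 8 of these genes, and Loxl2, Car9 and Dbp stand at the bottom of the panels.

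Cell cycle genes separated the non-responders from each other. Non-responder 1 was above all controls in 24 of 25 (all genes, 30.4%). Non-responder 2 was above them in 1 and below them in 10 (all genes, 25.1% and 24.4%). The median differences were 0.62 in non-responder 1 and −0.17 in non-responder 2. Rrm2, a ribonucleotide reductase gene, was at 45.0, 49.2 and 51.1 CPM in the controls, 107 CPM in non-responder 1 and 52.0 CPM in non-responder 2. Top2a, which untangles DNA before division, was at 249, 194 and 229 CPM in the controls, 407 CPM in non-responder 1 and 223 CPM in non-responder 2.

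ERK output genes, downstream of a kinase pathway in which SMYD3 has been placed, had 8 of 15 above 0 and a median of 0.02. On that list Dusp4, a phosphatase gene that limits ERK, was at 114, 109 and 72.8 CPM in the controls and 50.8 and 52.6 CPM in the non-responders (−0.93, adjusted p = 0.331). DNA methylation and heterochromatin genes had 8 of 16 above 0 and a median of 0.01. Uhrf1, which brings DNA methyltransferase to replicated DNA, was at 145, 96.9 and 109 CPM against 221 and 98.0 CPM, with overlap. ATF4 target and serine-folate genes had 10 of 15 above 0 (median 0.20). Of those with non-overlapping groups 4 were higher and 2 lower (all genes, 12% and 12.7%). Slc7a11, the cystine importer gene, was at 98.2, 43.0 and 69.9 CPM in the controls and 135 and 266 CPM in the non-responders. Immediate early and heat shock genes had a median of 0.04. Groups did not overlap in 2 of 13, Hsph1 and Hspa1b, both higher, beside 12% of all genes.

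**Figure D5:**
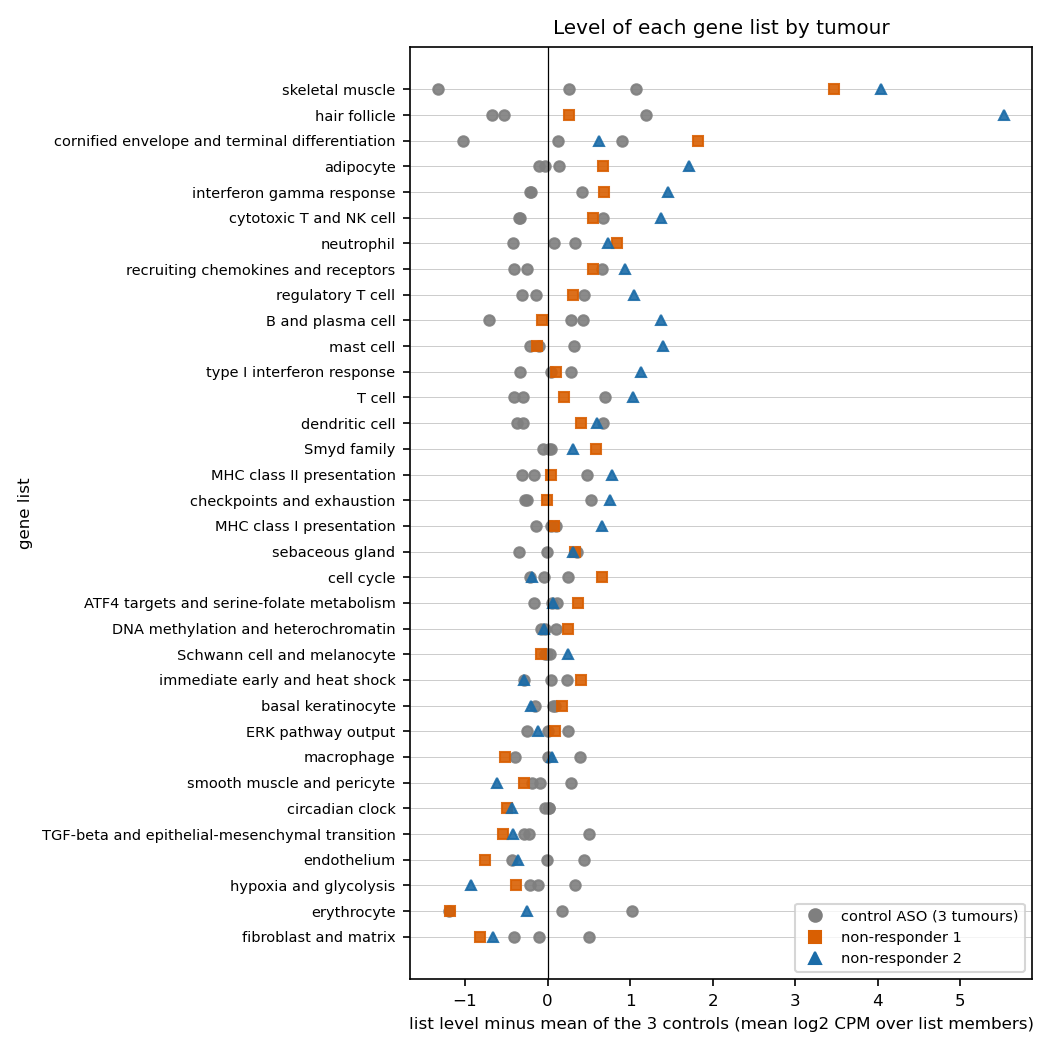
Mean log2 CPM over the members of each gene list, minus the mean of the 3 controls, with 1 point per tumour and lists ordered by the mean of the non-responders. The skeletal muscle list lies far right in both non-responders and the hair follicle list in non-responder 2 alone. Matrix and vessel lists lie left of 0 in the non-responders, though for endothelium control 1 lies left of non-responder 2. The cell cycle list has the non-responders on opposite sides of 0.

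The single-tumour differences have no replicate check, and both tumours were set against the same 3 controls. Non-responder 1 was at least 2-fold above the control mean and above all controls in 903 genes (5.53%) and correspondingly below in 697 (4.27%). Non-responder 2 was above in 1043 (6.39%) and below in 410 (2.51%). Among genes where non-responder 1 was high and non-responder 2 was inside the control range, the 6 with the largest difference were 5 Lce genes and Dnah8, an axonemal dynein gene, at 1.53, 0.846 and 1.22 CPM in the controls, 40.2 CPM in non-responder 1 and 1.35 CPM in non-responder 2. The reverse set for non-responder 2 was 6 hair keratin genes, Krt28, Krt81, Krt87, Krt36, Krt34 and Krt33a. Genes on opposite sides of the controls included Mmp10, a stromelysin gene, at 3.81, 19.0 and 8.69 CPM in the controls, 28.6 CPM in non-responder 1 and 3.27 CPM in non-responder 2. Crabp1, a retinoic acid binding protein gene, was at 0.456, 1.78 and 0.924 CPM in the controls, 5.20 CPM in non-responder 1 and 0.174 CPM in non-responder 2. Igf2bp3, an oncofetal RNA-binding protein gene, went the other way, at 0.995, 2.94 and 2.86 CPM in the controls, 0.598 CPM in non-responder 1 and 9.80 CPM in non-responder 2. Below all controls in non-responder 1 and inside their range in non-responder 2 were Chga, a neuroendocrine granule gene (1.33, 15.9 and 8.57 CPM in the controls, 0.644 CPM in non-responder 1 and 4.36 CPM in non-responder 2), and the macrophage genes Cd163 and Cd209f. The set below the controls in non-responder 2 included Slc2a1, described above, and Grem1, a BMP antagonist gene of fibroblasts, at 6.92, 17.7 and 10.8 CPM in the controls, 14.3 CPM in non-responder 1 and 3.53 CPM in non-responder 2.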

How the data were processed

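Bulk polyA RNA from MOC1 flank tumours was sequenced with a TruSeq Stranded mRNA kit, per the labels' protocols. Per the submitters' processing notes the tools were RSEM 1.3.0, STAR 2.7.0f, cutadapt 1.18 and bcl2fastq 2.17 and the build was mm10, with neither order nor settings given. The gene annotation is not given in the sources used here. The deposited table holds the authors' RSEM expected counts per gene, not scaled to library size, and its column names match the sample descriptions in the labels.

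Expected counts were rounded to whole reads and scaled by TMM. edgeR 4.0.16 (robust quasi-likelihood fit, R 4.3.3) was fitted to all 8 tumours in 4 groups with the contrast non-responder minus control, two-sided, with Benjamini-Hochberg adjustment over 16322 genes and a threshold of 0.05. Genes needed 10 reads in 2 of the 5 tumours, and 137 passed only through the non-responders. The tested genes held 99.92% of the reads. DESeq2 1.42.0, which left 633 adjusted p values as NA, and limma-voom (limma 3.58.1) were alternatives, beside other scalings and filters and leaving out each tumour. The standard error is the absolute log2 fold change over the square root of F. Differences for single tumours are on log2 CPM with a prior count of 2. The script was tested on simulated data.

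Gene symbols were those deposited with the counts. All 55450 gene identifiers were found in GENCODE M21, which gave mm10 coordinates, and promoters came from RefSeq (GRCm38.p6). The 35 gene lists and the members were chosen with earlier results of these data known, and lists were described by counts and medians with no set test. Named were Smyd3, the 5 genes of smallest p in each direction whose non-responders both lay outside the controls (mean CPM of at least 1, no predicted-gene names), up to 4 members of smallest p per list, and per tumour up to 6 genes with the largest difference from the controls and at least 5 CPM in 1 tumour. Genes named beyond that rule (gene families, Krt5, Krt14 and members listed only because their groups did not overlap) were chosen after their values were seen. Values of some single genes are not reported here.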

Additional observations from a re-analysis of the deposited data

How the results depend on the processing

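edgeR's count of 0 genes also held in the 5 tumours alone, with DESeq2 size factors or library totals, with 50 reads as the minimum, and without any 1 tumour (901 to 1802 genes at an unadjusted p under 0.05), and limma-voom gave 0. DESeq2 called 329 (219 higher, 110 lower) and edgeR without a count filter 4 (3 higher, 1 lower); the cause was not tested. Leaving out a non-responder assumes that the remaining 1 varies like the other groups. No paired analysis was possible because the labels give the non-responders no replicate numbers.

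Of 420 list medians under alternatives 383 moved by less than 1 SD pooled within both groups, a wide limit for hair follicle (2.31), whose median was 3.34 with voom. The clock median became −0.51 with voom and −0.55 with library totals. Without a filter the adipocyte median was 2.29 and the Schwann cell and melanocyte median −0.0929. With 50 reads the hair follicle median was 1.99, regulatory T cell 0.31, and B and plasma cell 1.94, since fewer genes were tested. At a 4-fold threshold non-responder 1 had 332 genes above and 79 below the controls, and non-responder 2 342 and 50.

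With 1 tumour left out, medians ranged from −0.37 to 0.0767 for Schwann cell and melanocyte, −0.69 to −0.45 for clock, 0.0747 to 1.39 for regulatory T cell, 0.088 to 0.91 for dendritic cell, −0.50 to −0.0651 for sex-linked (Xist), −0.95 to −0.33 for smooth muscle and pericyte, and −0.31 to −0.0032 for basal keratinocyte genes. They ranged from −0.22 to 0.60 for cell cycle, −0.36 to 0.33 for immediate early and heat shock, −0.0475 to 0.37 for ATF4 and serine-folate, −0.11 to 0.16 for Smyd family, 0.0456 to 0.66 for MHC class I, 0.54 to 5.91 for hair follicle and 0.0381 to 0.72 for adipocyte genes. They ranged from 0.64 to 1.41 for interferon gamma, 0.11 to 1.17 for type I interferon, 0.41 to 1.46 for chemokine, 0.13 to 1.182 for T cell, −0.45 to 0.76 for B and plasma cell and −0.39 to 1.43 for mast cell genes. For the interferon, MHC class I, chemokine, T cell and hair follicle lists the lowest of these medians was the one without non-responder 2.

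With 1 tumour left out, some log2 fold changes turned negative without non-responder 1, their lowest value: they ranged from −0.0025 to 0.8602 for Top2a, −0.26 to 0.91 for Uhrf1, −0.009 to 0.8414 for Phlda1, −0.45 to 1.19 for Egr1, −0.0565 to 0.3627 for Plin2 and −0.12 to 0.33 for Smyd2. Others did so without non-responder 2: they ranged from −0.84 to 4.82 for Jchain, −0.19 to 1.79 for Fcer1a and −0.38 to 2.09 for Tpsab1. Genes at a few reads, such as Msx2 and the hair keratins in the controls, are limited by depth.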
